A study of Mus musculus with 43 samples.

Results

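Primary mouse colon fibroblasts kept in 10 µM regorafenib (R10) were compared with the same lines kept in vehicle (Ve), by RNA sequencing of 6 of the 43 samples of the series. The 3 R10 libraries came from the lines M3, M3(2) and M1(2), and each was paired with the Ve library of its own line. A fibroblast line without an R10 library, M11, was left out. Of the 52636 genes of the fibroblast table, 10268 reached 200 CP20M in at least 2 of the 6 libraries and were tested. CP20M are read counts scaled to 20000000 per library and not divided by gene length, so levels are compared here between libraries and not between genes.

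The study asked how regorafenib, alone or with the autophagy inhibitor autogramin-2, acts on mouse colon organoids, colorectal cancer lines and colon fibroblasts. All 6 libraries came from wild-type C57B/6 mice, with DMSO as the vehicle, and were taken at day 7. No R10 or Ve library received autogramin-2. The lines were grown in serum-containing medium from the colon tissue left after crypts had been removed, each from an individual mouse. The study lists M3 and M3(2) as male mice of 2 months, and the age of M1(2) is not given in the sources used here. No sorting step was described, so cells other than fibroblasts could be carried along, and the levels of their markers are given below.

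Regorafenib is an oral inhibitor of many kinases, among them the receptors for vascular endothelial growth factors, platelet-derived growth factors (PDGF), fibroblast growth factors and stem cell factor, and kinases of the ERK cascade. Colon fibroblasts lie beneath the crypts, build the extracellular matrix and secrete Wnt, BMP and growth factor signals that the epithelium reads. PDGF is their classical mitogen, and TGF-beta drives their contractile, matrix-producing form.

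The 6 libraries held between 8366392 and 12825919 reads in genes, so 1 read was worth 1.56 to 2.39 CP20M. In a principal component analysis of the 6 libraries the first component held 58.4% of the variance and separated the R10 from the Ve libraries, and the second, with 21.7%, separated M1(2) from the lines M3 and M3(2). Fibroblast markers were abundant in every library. The 9 markers summed to 207740, 195014 and 190828 CP20M under Ve in M3, M3(2) and M1(2), and to 180540, 175279 and 183437 CP20M under R10. Endothelial markers (7 genes) differed between the lines and summed to 1350, 14293 and 2693 CP20M under Ve and 1634, 7788 and 2140 CP20M under R10. Leukocyte markers (11 genes) summed to 2484, 1077 and 1758 CP20M under Ve and 621, 600 and 626 CP20M under R10, with Cd3e at 0 in all 6 libraries and C1qa at 0 under R10. Epithelial markers (7 genes) stayed between 79 and 227 CP20M. Enteric glia and neuron markers (5 genes) were highest in M1(2) and summed to 950, 624 and 4265 CP20M under Ve and 1479, 949 and 4815 CP20M under R10. Mesothelial markers (4 genes) summed to 114, 279 and 82 CP20M under Ve and 10, 78 and 14 CP20M under R10. In bulk RNA, fewer cells of a type and less RNA per cell cannot be told apart.

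Across the 10268 genes, 1377 (13.4%) were called, which took a limma adjusted p under 0.05 with the line as a block and a change of at least 1.5-fold in either direction. Of these, 622 (6.06%) were higher and 755 (7.35%) were lower under R10, and the median log2 fold change over all genes tested was -0.03. The shares of 6.06% and 7.35% are the background for the counts of each gene list below. In 1372 of the 1377 genes the change had the same direction in all 3 lines, and in 1168 the R10 and Ve values did not overlap. Being called by the paired test favours both outcomes, so these counts are not independent evidence. A change of at least 2-fold was found for 218 genes higher and 350 genes lower, and one of at least 4-fold for 40 higher and 64 lower. The plot of fold change against level shows called genes in both directions over most of the range of levels.

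**Figure D1:**
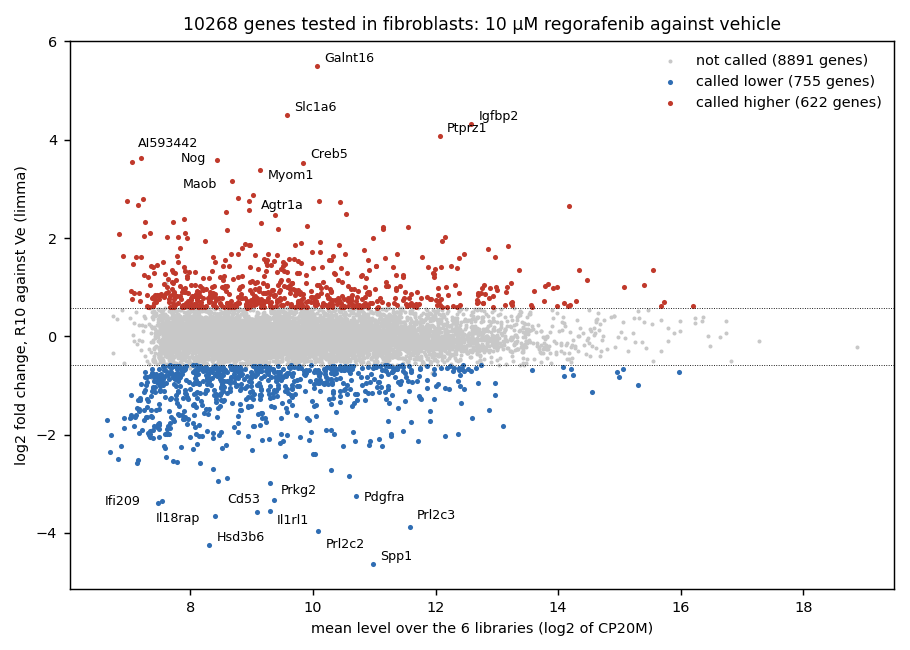
Each point is 1 of the 10268 genes tested, with the log2 of its mean CP20M over the 6 libraries on the x axis and the log2 fold change of R10 against Ve on the y axis. Red points are the 622 genes called higher, blue points the 755 called lower, dotted lines mark the 1.5-fold threshold, and the named genes run from Galnt16 at 5.51 to Spp1 at -4.62.

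The protein-coding gene with the largest increase was Galnt16 (ENSMUSG00000021130, chr12:80518277-80630972), which encodes an enzyme that starts O-linked glycan chains. It read 15, 19 and 40 CP20M under Ve in M3, M3(2) and M1(2), and 2189, 3074 and 1109 CP20M under R10, a log2 fold change of 5.51 ± 0.34 (SE, n = 3 lines; limma adjusted p = 2.6e-05). The glutamate transporter gene Slc1a6 went from 58, 43 and 34 CP20M to 1927, 1380 and 1136 CP20M (log2 fold change 4.51). In both genes the lowest R10 library was far above the highest Ve library.

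Igfbp2 (ENSMUSG00000039323, chr1:72824503-72852474), which encodes a secreted binding protein for insulin-like growth factors, read 359, 610 and 708 CP20M under Ve and 9310, 16705 and 9041 CP20M under R10. Ptprz1, a receptor-type tyrosine phosphatase, read 445, 540 and 382 CP20M under Ve and 9822, 8441 and 6081 CP20M under R10. These changes came to 4.33 ± 0.18 and 4.08 ± 0.10 on the log2 scale (SE, n = 3 lines). Noggin (Nog), a secreted antagonist of BMP, rose from 17, 69 and 26 CP20M to 573, 958 and 438 CP20M, a log2 fold change of 3.59 ± 0.17. The other genes among the 10 largest increases were AI593442 (3.62), Creb5 (3.52), a transcription factor of the CREB family, Myom1 (3.38), a protein of the muscle M-band, Maob (3.17), a monoamine oxidase, and Agtr1a (2.88), the angiotensin II receptor. AI593442 was barely detected under Ve, at 3, 5 and 5 CP20M.

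The gene with the largest decrease was Spp1 (ENSMUSG00000029304, chr5:104435118-104441050), which encodes osteopontin, a secreted phosphoprotein of the matrix. Its levels were 6821, 2845 and 2036 CP20M under Ve and 159, 103 and 102 CP20M under R10, a log2 fold change of -4.62 ± 0.19 (SE, n = 3 lines; limma adjusted p = 5.4e-06). A gene model, Gm42793, shares 18.8% of its exon bases. Spp1 is one of 3 genes that the study itself picked out in these fibroblasts, and the others were lower as well: Angptl4, a secreted inhibitor of lipoprotein lipase, at -2.71 and Slfn2, a Schlafen gene, at -2.54. Because the study chose these genes on these samples, their direction is not independent evidence.

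Among the other 10 largest decreases were the steroid dehydrogenase gene Hsd3b6 (-4.24), the cyclic GMP-dependent kinase gene Prkg2 (-3.33) and the interferon-inducible gene Ifi209 (-3.35). Prl2c2 and Prl2c3, members of the proliferin family, read lower by 3.97 and 3.87 on the log2 scale, but near-identical copies share reads in this family and the split between them is uncertain. Another 3 genes of this group are best known from immune cells. Il18rap, a subunit of the interleukin-18 receptor, fell from 725, 512 and 694 CP20M to 40, 21 and 37 CP20M. Cd53, a tetraspanin of leukocytes, fell from 1160, 961 and 918 CP20M to 45, 59 and 104 CP20M. Il1rl1, the receptor for interleukin-33, fell from 997, 691 and 1858 CP20M to 90, 82 and 55 CP20M. Of the 11 leukocyte markers 2 were tested. Lyz2, the lysozyme of myeloid cells, was lower by 2.13 on the log2 scale, whereas Csf1r, at -0.35, was not called. Ptprc, the pan-leukocyte marker CD45, did not pass the filter and read 46, 7 and 30 CP20M under Ve and 9, 5 and 0 CP20M under R10. The part of leukocytes in these decreases was not tested.

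Of 16 kinases that regorafenib is known to inhibit, 12 were tested, 3 were lower and none was higher, with a median log2 fold change of -0.04 beside -0.03 over all genes tested. The 4 others did not pass the filter. The change centred on Pdgfra (ENSMUSG00000029231, chr5:75152292-75198215), the receptor for several PDGF dimers and a marker of colon fibroblast subtypes. It read 4877, 2606 and 1645 CP20M under Ve and 429, 303 and 152 CP20M under R10, a log2 fold change of -3.25 ± 0.09 (SE, n = 3 lines; limma adjusted p = 1.5e-06). The lines kept their order in both groups, and each fell by a similar step, -3.45 in M3, -3.02 in M3(2) and -3.27 in M1(2). Its sister receptor Pdgfrb read 6916, 5285 and 5942 CP20M under Ve and 5592, 4241 and 5217 CP20M under R10, so the groups overlapped, and its log2 fold change of -0.27 did not reach the threshold.

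Fgfr1, a receptor for fibroblast growth factors, fell from 6013, 6467 and 8039 CP20M to 3896, 3654 and 4177 CP20M, a log2 fold change of -0.80 ± 0.07. Flt4, the receptor for VEGF-C and VEGF-D, read 1028, 3122 and 1226 CP20M under Ve and 548, 1175 and 575 CP20M under R10. The groups overlapped, and the log2 fold change of -1.11 was called with the line as a block (limma adjusted p = 0.00011) but not without it (limma adjusted p = 0.13). Flt4 is expressed by lymphatic endothelium, and the endothelial marker sum given above was also highest in M3(2). The part of endothelial cells in this change was not tested. The other VEGF receptors, Kdr (0.57) and Flt1 (0.69), were not called and had standard errors of 0.33 and 0.34.

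No other tested kinase was called. Ddr2, a collagen receptor, had a log2 fold change of -0.19, Epha2 of -0.12, Fgfr2 of 0.04 and Mapk14, the p38 alpha kinase, of 0.14. Braf had limma adjusted p = 0.00035 but stayed just under the fold threshold at 0.55. It read 1528, 1366 and 1305 CP20M under Ve and 2360, 1958 and 1870 CP20M under R10, with no overlap. The panels of kinase levels by dose show Pdgfra and Fgfr1 falling step by step from 0 to 4 to 10 µM in every line, while Flt4 in M3(2) and M1(2) was highest at 4 µM.

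**Figure D2:**
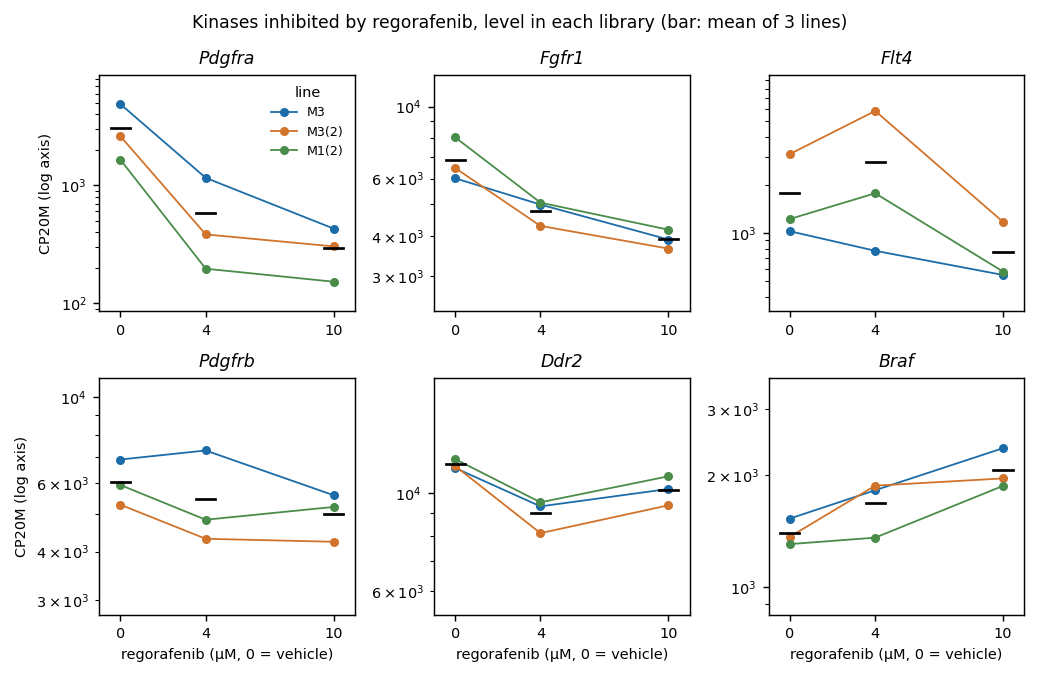
Level of 6 kinases in CP20M (log axis) against regorafenib dose in µM, with 0 for vehicle, each line joined across doses and a black bar at the mean of the 3 lines. Pdgfra fell in each line from 1645 to 4877 CP20M at 0 µM to 152 to 429 CP20M at 10 µM, whereas Pdgfrb, Ddr2 and Braf were not called.

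Of 20 ligands of these receptors, 15 were tested, 4 were lower and 4 were higher. Kitl, the stem cell factor, fell from 1664, 4870 and 4606 CP20M to 586, 1063 and 1621 CP20M (log2 fold change -1.71). Fgf7, the keratinocyte growth factor that fibroblasts supply to epithelium, fell from 981, 476 and 824 CP20M to 318, 238 and 229 CP20M (-1.42). Vegfc, the main lymphatic growth factor, fell from 531, 648 and 612 CP20M to 206, 238 and 215 CP20M (-1.36). For these 3 ligands every R10 value lay below every Ve value. Angpt2, a ligand of the TEK receptor made largely by endothelium, was lower by 1.11 on the log2 scale, but ranged from 448 to 6952 CP20M among the Ve lines. Without the line block neither Kitl nor Angpt2 was called (limma adjusted p = 0.052 and 0.48).

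Pdgfd, a ligand of the PDGF beta receptor, rose from 656, 897 and 700 CP20M to 1328, 1650 and 1488 CP20M (log2 fold change 0.98). Pdgfb, Pdgfc and Fgf10 were also called higher, between 0.59 and 0.79, but each lost its call when at least 1 line was left out, and between 1 and 3 ligands were called higher then. Of the receptors outside the drug's list, 16 were tested and 2 were higher: Ddr1, a collagen receptor, and Lifr, the receptor for leukemia inhibitory factor, both at 0.85. Osmr, the oncostatin M receptor, was the only member lower, at -0.65. These receptor counts stand beside 6.06% higher and 7.35% lower over all genes tested.

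Of 25 tested genes that ERK signaling induces, many of which feed back on it, 14 were lower, 11 were not called and none was higher, with a median log2 fold change of -0.69. Errfi1, an inhibitor of the EGF receptor, was the clearest. It read 2176, 2023 and 2099 CP20M under Ve and 561, 508 and 470 CP20M under R10 (log2 fold change -1.99 ± 0.07, SE, n = 3 lines; limma adjusted p = 3.4e-06). The immediate early transcription factors Egr3 and Egr2 fell by 1.85 and 1.82 on the log2 scale, and Etv1, an ETS factor, fell by 1.51. Egr2 went from 338, 292 and 331 CP20M to 94, 63 and 75 CP20M. The response was uneven among members of the list, of which the following were chosen after their values were seen. The feedback inhibitors Dusp5 (-1.15), Dusp6 (-0.74), Spry4 (-0.69) and Spred1 (-0.89) were lower, whereas Spry1 (-0.30) and Dusp4 (0.06) were not called. Fos (-0.14), an immediate early transcription factor, was also not called.

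Most cell division genes tested were lower. Of 29 tested genes of mitosis and cytokinesis, 27 were lower and none was higher, with a median log2 fold change of -1.73, and the count stayed at 27 when any line was left out. Of 25 tested genes of DNA replication and origin licensing, 18 were lower and none was higher, with a median of -0.82. A further 14 mitosis genes and 13 replication genes were below the filter and were not tested. The decreases were deepest for Mki67, the proliferation antigen Ki-67, which read 2310, 1681 and 1328 CP20M under Ve and 282, 308 and 344 CP20M under R10 (log2 fold change -2.40 ± 0.17, SE, n = 3 lines; limma adjusted p = 4.5e-05). Ccnb1, the mitotic cyclin B1, fell from 526, 319 and 344 CP20M to 52, 70 and 77 CP20M. Cenpf, a kinetochore protein, fell from 560, 478 and 367 CP20M to 75, 87 and 96 CP20M. For each of these genes the 3 R10 values lay close together, far below the lowest Ve value.

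Among replication genes, Uhrf1, which couples DNA methylation to replication, fell from 641, 576 and 545 CP20M to 128, 152 and 134 CP20M (log2 fold change -1.94). Mcm6 and Mcm5, subunits of the replicative helicase, fell by 1.82 and 1.81 on the log2 scale, and Pole, the catalytic subunit of DNA polymerase epsilon, by 1.76. Mcm6 read 938, 843 and 700 CP20M under Ve and 239, 178 and 245 CP20M under R10.

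The promoters of the 3 genes with the lowest log2 fold change in each of these lists are shown because most tested members of the lists were lower. The sequences are from RefSeq (build GRCm38.p6), are written 5′ to 3′ on the gene's own strand and end at or before the base upstream of the transcript start. Capitals mark matches on either strand to the CCAAT box (CCAAT, or ATTGG on the other strand), to the cell cycle homology region (CHR, TTTGAA) and to the E2F forms TTTGGCGC, TTTCGCGC, TTTCCCGC and TTTGCCGC, of which neighbouring matches can overlap. Mki67 is at chr7:135716380-135716629 (minus strand), Ccnb1 at chr13:100786571-100786736 (minus strand), Cenpf at chr1:189688087-189688336 (minus strand), Uhrf1 at chr17:56303087-56303320 (plus strand), Mcm6 at chr1:128359706-128359955 (minus strand) and Mcm5 at chr8:75109259-75109508 (plus strand).
Mki67: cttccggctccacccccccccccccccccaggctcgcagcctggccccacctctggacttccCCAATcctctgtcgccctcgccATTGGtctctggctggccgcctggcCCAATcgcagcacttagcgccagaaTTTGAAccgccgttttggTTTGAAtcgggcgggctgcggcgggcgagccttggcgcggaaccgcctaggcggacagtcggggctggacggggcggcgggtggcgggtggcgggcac
Ccnb1: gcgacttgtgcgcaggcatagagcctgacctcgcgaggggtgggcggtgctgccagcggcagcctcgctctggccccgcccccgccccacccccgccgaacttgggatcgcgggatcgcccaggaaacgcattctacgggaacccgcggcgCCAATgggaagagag
Cenpf: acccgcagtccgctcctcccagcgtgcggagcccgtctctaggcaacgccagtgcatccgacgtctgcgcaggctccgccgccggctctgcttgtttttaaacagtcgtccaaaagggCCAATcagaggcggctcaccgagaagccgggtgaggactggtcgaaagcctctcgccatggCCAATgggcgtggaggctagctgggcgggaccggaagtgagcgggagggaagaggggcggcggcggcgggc
Uhrf1: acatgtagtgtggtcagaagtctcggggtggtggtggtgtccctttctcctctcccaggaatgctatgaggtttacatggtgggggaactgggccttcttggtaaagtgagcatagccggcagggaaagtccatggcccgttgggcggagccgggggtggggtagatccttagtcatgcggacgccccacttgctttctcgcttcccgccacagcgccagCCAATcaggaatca
Mcm6: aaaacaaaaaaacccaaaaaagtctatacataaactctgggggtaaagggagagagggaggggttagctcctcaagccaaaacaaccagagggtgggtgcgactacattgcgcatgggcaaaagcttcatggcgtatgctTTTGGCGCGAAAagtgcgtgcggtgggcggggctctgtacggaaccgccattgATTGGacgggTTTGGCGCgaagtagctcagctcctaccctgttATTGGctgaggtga
Mcm5: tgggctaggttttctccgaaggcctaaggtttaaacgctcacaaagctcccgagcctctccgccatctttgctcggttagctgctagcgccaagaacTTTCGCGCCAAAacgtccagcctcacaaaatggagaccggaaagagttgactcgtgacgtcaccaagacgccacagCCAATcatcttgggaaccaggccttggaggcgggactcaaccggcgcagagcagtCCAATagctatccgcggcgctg
The Mki67 promoter held 3 CCAAT and 2 CHR matches, and Mcm6 held 2 CCAAT and 3 E2F matches. Over the 250 bases before the start, a CCAAT match was found in 21 of 25 mitosis promoters (84%) and in 13 of 21 replication promoters (61.9%), beside 35.8% of the 7655 tested genes with a promoter and 34.3% of all 27025 promoters. A CHR match was found in 8 of the 25 mitosis promoters (32%) and 3 of the 21 replication promoters (14.3%), beside 9.56% of the tested genes and 16.3% of all promoters. An E2F match was found in 4 of 21 replication promoters (19%) and 1 of 25 mitosis promoters (4%), beside 3.37% and 1.96%. Among the 541 genes called lower that had a promoter, the shares were 37.9% for CCAAT, 14.6% for CHR and 2.96% for E2F. A match describes the letters of the promoter and not the binding of a factor.

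**Figure D3:**
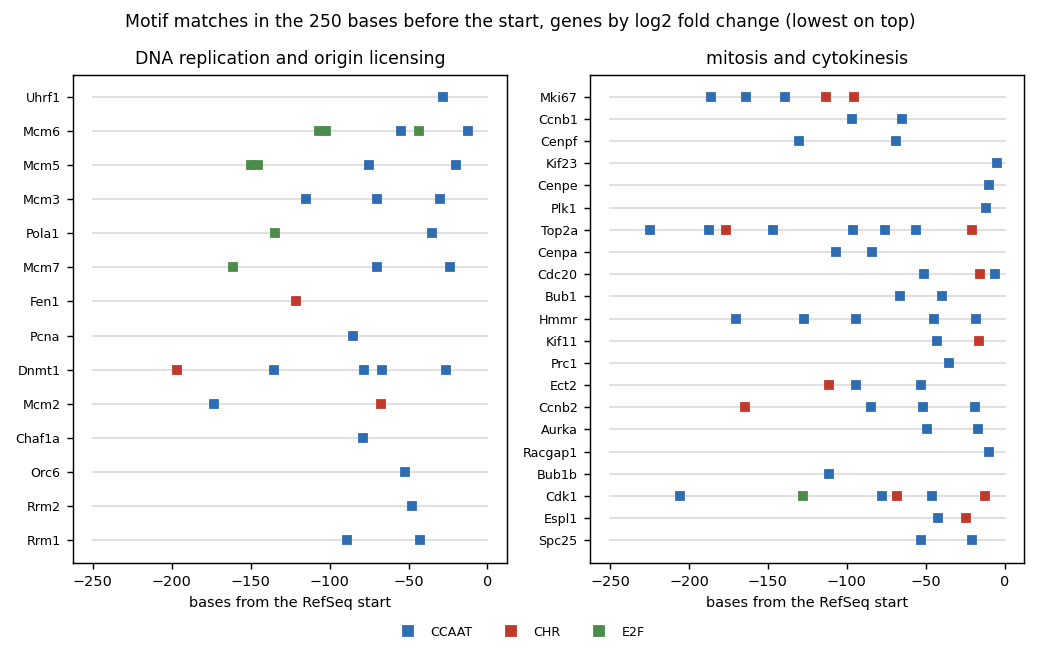
Squares mark where CCAAT (blue), CHR (red) and E2F (green) matches lie in the 250 bases before the RefSeq start of tested replication genes (left) and mitosis genes (right), with the lowest log2 fold change on top. Promoters without any match are not drawn, and CCAAT is the commonest match in both panels.

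Regulators of the G1/S step changed less. Of 16 tested, 4 were lower: Ccna2 (-1.09), Ccne2 (-0.91), Myc (-0.86) and Ccne1 (-0.81). Exons of Ccna2 and Ccne2 overlap Exosc9 and Ints8 on the opposite strand. Of 4 tested inhibitors of cyclin-dependent kinases, Cdkn2b, which encodes p15, rose from 1662, 1828 and 1808 CP20M to 3716, 4117 and 2605 CP20M (log2 fold change 0.95), and the others were not called. Of 26 tested p53 target genes, 3 were higher and 2 were lower, beside 6.06% higher and 7.35% lower over all genes tested. Their median was 0.31, and the number higher ranged from 2 to 6 when a line was left out. The higher genes were Fas, Perp (1.19) and Pmaip1 (0.59), of which Perp and Pmaip1 were not called without the line block and Pmaip1 also not without M3 or without M3(2). The lower ones were Ckap2 (-1.15) and Plk2 (-0.69), of which Plk2 was not called without the block. Fas, a death receptor, rose from 249, 283 and 223 CP20M to 660, 769 and 440 CP20M. Of 13 tested genes in a list of nuclear envelope genes and senescence marks, 7 were lower and none was higher. The list mixes genes whose loss marks senescence with others, such as Cdkn2a (0.54, not called), so the count gives no direction for senescence. The lower genes included Hmga1, an architectural chromatin protein, at -2.02 and Lmnb1, lamin B1, at -1.40.

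**Figure D4:**
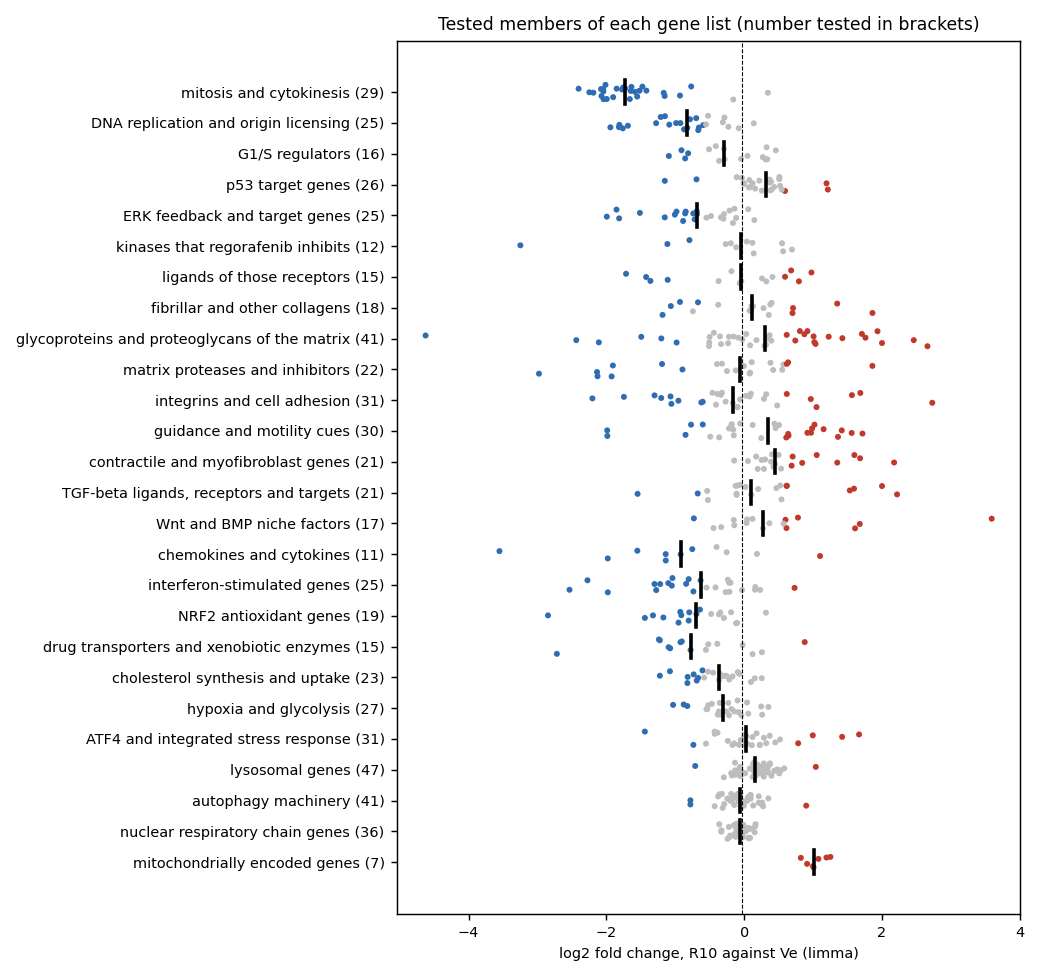
Each point is a tested member of a gene list, placed by its log2 fold change of R10 against Ve, in red where called higher, blue where called lower and grey where not called. Black bars are list medians, from -1.73 for mitosis to 1.01 for mitochondrially encoded genes, and the dashed line is the median over all genes tested, -0.03.

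Matrix genes moved in both directions. Of 41 tested glycoproteins and proteoglycans, 16 were higher and 6 were lower, with a median log2 fold change of 0.30. Postn (periostin), a matricellular protein that binds integrins, read 4002, 2923 and 9984 CP20M under Ve and 31095, 25104 and 38169 CP20M under R10 (log2 fold change 2.66 ± 0.19, SE, n = 3 lines; limma adjusted p = 5.3e-05). Nov, also called CCN3, rose by 2.46, Ltbp2 by 2.00 and Nid2, a basement membrane linker, by 1.93. Each of these was higher in every R10 library than in any Ve library.

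On the falling side stood Spp1, described above, and Has2, a hyaluronan synthase, which went from 1915, 969 and 909 CP20M to 382, 133 and 162 CP20M (log2 fold change -2.44). Tnxb, tenascin X, fell by 2.11. Ltbp1, which anchors latent TGF-beta in the matrix, fell by 1.49, from 11716, 9918 and 11511 CP20M to 3235, 4390 and 4173 CP20M, while its relative Ltbp2 rose.

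Of 18 tested collagen genes, 4 were higher and 4 were lower. Col12a1, a collagen that associates with fibrils, rose from 35294, 27330 and 19593 CP20M to 81490, 70866 and 54228 CP20M (log2 fold change 1.35). Col3a1, a fibrillar collagen, fell from 10426, 9282 and 13352 CP20M to 4467, 3477 and 7022 CP20M (-1.19). Col11a1 fell by 1.07 and Col1a2 by 0.67, whereas Col4a5, of basement membranes, rose by 0.71. Among 21 tested genes that process and crosslink collagen, 2 were higher and 4 were lower. Adamts2, the procollagen N-proteinase, rose from 314, 423 and 612 CP20M to 2258, 2794 and 2566 CP20M (2.49). Its relative Adamts14 went the other way, from 1098, 793 and 1383 CP20M to 340, 236 and 423 CP20M (-1.66). The lysyl oxidase-like genes Loxl3 (-1.01), whose exons overlap Htra2 on the opposite strand, and Loxl4 (-0.87) were lower, whereas Loxl1 rose from 3734, 3004 and 3712 CP20M to 5806, 4271 and 5937 CP20M (0.60) and was not called without M1(2) (0.57).

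Of 22 tested matrix proteases and inhibitors, 7 were lower and 3 were higher. Mmp3, stromelysin 1, fell from 519, 730 and 2145 CP20M to 25, 131 and 243 CP20M (log2 fold change -2.98). Plau, the urokinase plasminogen activator, fell from 5257, 4898 and 6227 CP20M to 1203, 1228 and 1249 CP20M (-2.13 ± 0.07, SE, n = 3 lines). Timp1, an inhibitor of metalloproteinases, fell by 2.14, so that a protease and an inhibitor of proteases fell by about the same factor. Serpinf1, pigment epithelium-derived factor, rose from 197, 291 and 629 CP20M to 965, 1193 and 1735 CP20M (1.86). Without the line block 4 of the 22 were lower and 1 was higher.

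Of 31 tested integrins and adhesion genes, 6 were higher and 9 were lower (3 and 5 without the line block). Itga8, the alpha 8 integrin subunit of mesenchymal and smooth muscle cells, read 242, 426 and 394 CP20M under Ve and 2463, 2931 and 1906 CP20M under R10 (log2 fold change 2.73 ± 0.16, SE, n = 3 lines; limma adjusted p = 2.2e-05). Itga1, which pairs with beta 1 to bind collagen, rose by 1.56 and Mcam, an adhesion molecule of the vessel wall, by 1.69. Vcam1, which holds leukocytes, fell from 4848, 4385 and 5075 CP20M to 1457, 1324 and 1439 CP20M (-1.75). Pcdh19, a protocadherin, fell from 2228, 3189 and 4064 CP20M to 570, 499 and 966 CP20M, and Itga2 fell by 1.30.

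Of 30 tested guidance and motility cues, 12 were higher and 5 were lower (8 and 4 without the line block), with a median log2 fold change of 0.34. Among the class 3 semaphorins, which are secreted, Sema3a fell from 8351, 8447 and 8357 CP20M to 2351, 1704 and 2305 CP20M (-1.99), and Sema3e fell from 2797, 4502 and 4570 CP20M to 686, 1275 and 1008 CP20M (-1.99). Sema3b, of the same class, rose from 1284, 1182 and 4979 CP20M to 4044, 3437 and 9431 CP20M (1.36), with overlapping groups and no call without the line block. Efnb1, an ephrin ligand, rose by 1.72, Unc5c, a netrin receptor, by 1.56 and Ntn4, a netrin of basement membranes, by 1.42. Efnb1 went from 550, 512 and 428 CP20M to 1883, 2186 and 1128 CP20M.

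Of 21 tested contractile genes, 8 were higher and none was lower, with a median log2 fold change of 0.45. Synpo2, an actin-bundling protein, rose from 703, 1020 and 700 CP20M to 4610, 2950 and 3608 CP20M (2.18). Lmod1, a smooth muscle leiomodin, rose by 1.68 and Fhl1 by 1.35, and Myh11, smooth muscle myosin, rose from 761, 1937 and 903 CP20M to 3575, 2838 and 3796 CP20M. Acta2, alpha smooth muscle actin, was higher by 0.70, while Acta1, skeletal alpha actin, which is not in the list, fell from 2709, 1811 and 727 CP20M to 506, 164 and 243 CP20M (-2.40). These 2 actins were chosen after their values were seen. The 5 smooth muscle markers, which include Myh11 and Lmod1, summed to 24847, 21441 and 15846 CP20M under Ve and 43278, 34372 and 37722 CP20M under R10. The pericyte markers summed to 1303, 1274 and 1381 CP20M under Ve and 4587, 4373 and 3524 CP20M under R10, but most of the R10 sum was Notch3, which rose by 2.23. Cspg4, the other pericyte marker tested, read 565, 490 and 474 CP20M under Ve and 378, 315 and 413 CP20M under R10 (-0.45, not called), and the 3 others did not pass the filter. The part of smooth muscle cells or pericytes in these increases was not tested.

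Of 21 tested genes of TGF-beta signaling, 6 were higher and 2 were lower. The 3 ligands did not move together. Tgfb2 rose from 1055, 864 and 1234 CP20M to 5316, 4259 and 5239 CP20M (log2 fold change 2.22 ± 0.07, SE, n = 3 lines; limma adjusted p = 2.4e-06), and Tgfb3 rose from 3352, 2439 and 2103 CP20M to 10942, 7030 and 6241 CP20M (1.59). Smad6, an inhibitory SMAD, rose by 1.53. Tgfbr3, the co-receptor betaglycan, fell from 1848, 1633 and 2472 CP20M to 594, 527 and 897 CP20M (-1.55). Tgfb1, the third ligand, went from 961, 1632 and 1293 CP20M to 677, 916 and 782 CP20M, a log2 fold change of -0.67 that was called with the line block and not without it (limma adjusted p = 0.054).

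Of 17 tested Wnt and BMP niche factors, 6 were higher and 1 was lower, and 21 listed genes were below the filter. Besides Nog, Nrg1, a ligand of ERBB receptors, rose from 137, 227 and 246 CP20M to 715, 716 and 603 CP20M (log2 fold change 1.68), and Dkk3 rose by 0.78. Grem1, another BMP antagonist, read 83341, 69889 and 85301 CP20M under Ve and 37985, 55646 and 51430 CP20M under R10. Its log2 fold change of -0.73 became -0.53 without M3 and was then not called. So 2 secreted BMP antagonists moved in opposite directions.

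Of 15 tested genes of the insulin-like growth factor system, 2 were higher and 5 were lower. Igfbp2 rose, as described above, while Igfbp5 fell from 316, 280 and 587 CP20M to 85, 77 and 130 CP20M (log2 fold change -1.77). Igfbp6 fell by 1.14, and Pappa2, a protease of IGF-binding proteins, by 1.62. The related protease gene Pappa rose from 4648, 2263 and 4311 CP20M to 8129, 4015 and 8760 CP20M (0.88), with overlapping groups and no call without the line block (limma adjusted p = 0.14). Among 11 markers that the study uses for colon fibroblast subtypes, 4 were lower and 3 were higher. Cd34 fell from 2888, 5134 and 5534 CP20M to 808, 1322 and 1318 CP20M (-1.94), and Pdgfra fell with it. Thy1 (1.53) and Sfrp1 (1.61) were higher with the line block and not called without it.

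Of 11 tested genes of chemokines, cytokines, their receptors and prostaglandin enzymes, 7 were lower and 1 was higher (5 and 1 without the line block). A further 25 listed genes were below the filter. Besides Il1rl1, the monocyte chemokine Ccl2 fell from 565, 1253 and 1603 CP20M to 163, 185 and 504 CP20M (log2 fold change -1.98), and Ccl7 fell by 1.55. Ptgs2, cyclooxygenase 2, fell from 37983, 33810 and 26689 CP20M to 19534, 14930 and 10971 CP20M (-1.14). Tnfrsf11b, osteoprotegerin, was the member that rose, from 758, 864 and 1075 CP20M to 1807, 1864 and 2139 CP20M. Of 25 tested interferon-stimulated genes, 13 were lower and 1 was higher, with a median of -0.63, and 8 were lower without the line block. Ifi204 fell by 2.28, Slfn9 by 1.98 and Usp18, which removes ISG15, by 1.30. Tap1, a peptide transporter of antigen presentation, was the member called higher, at 0.73, and was not called without M3(2), at 0.57.

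Of 19 tested antioxidant genes that NRF2 activates, 11 were lower and none was higher, with a median log2 fold change of -0.69, and the count was 11 whichever line was left out. Nqo1, a quinone reductase and a standard readout of NRF2, read 2157, 3701 and 2212 CP20M under Ve and 294, 590 and 233 CP20M under R10 (-2.85 ± 0.10, SE, n = 3 lines; limma adjusted p = 3.6e-06). The cystine transporter gene Slc7a11 fell by 1.44, Srxn1, sulfiredoxin, by 1.32 and Gclc, the catalytic subunit of glutathione synthesis, by 1.17. Srxn1 went from 3978, 4204 and 4227 CP20M to 1585, 1524 and 1824 CP20M.

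Of 15 tested drug transporters and xenobiotic enzymes, 8 were lower and 1 was higher, with a median log2 fold change of -0.78. Cyp1b1, a cytochrome P450 that the aryl hydrocarbon receptor induces, fell from 1554, 2025 and 2880 CP20M to 121, 499 and 427 CP20M (-2.72). The member called higher was Aldh1a1, a retinaldehyde dehydrogenase, at 0.88, which lost its call without M3. The glucuronosyltransferase genes Ugt1a6a (-1.24) and Ugt1a7c (-1.22) share exons, so that their reads cannot be assigned to one or the other with certainty.

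Of 23 tested genes of cholesterol synthesis and uptake, 8 were lower and none was higher, among them Stard4 (-1.22), Insig1 (-1.08) and Hsd17b7 (-0.82). Insig1, which holds the sterol sensor in the endoplasmic reticulum, fell from 1949, 2193 and 2174 CP20M to 844, 963 and 1176 CP20M. Of 13 tested genes of cholesterol efflux, 3 were lower, Abcg1 (-1.51), Mylip (-0.92) and Soat1 (-0.81), and 1 was higher. Apoe, apolipoprotein E, went from 677, 964 and 1764 CP20M to 1176, 1345 and 3495 CP20M (0.74), with overlapping groups and no call without the line block (limma adjusted p = 0.31). Gramd1a, whose product moves cholesterol between membranes and is the target of autogramin-2, read 825, 939 and 780 CP20M under Ve and 981, 1116 and 1093 CP20M under R10. The groups did not overlap, and its log2 fold change of 0.32 (limma adjusted p = 0.011) was under the fold threshold. Of 25 tested fatty acid genes, 7 were lower and 1 was higher. Plin4, a lipid droplet coat protein, was the higher one, at 0.75, and Angptl4 fell from 522, 582 and 656 CP20M to 66, 94 and 61 CP20M. Scd1, a fatty acid desaturase, fell by 1.07, and Elovl6, an elongase, by 0.84.

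Lysosomal and autophagy genes changed little. Of 47 tested lysosomal genes 1 was higher and 1 was lower, with a median log2 fold change of 0.16, and of 41 tested genes of the autophagy machinery 1 was higher and 2 were lower, with a median of -0.06. These shares were below the background of 6.06% higher and 7.35% lower. The exceptions were Ctsf, a cathepsin, which rose by 1.04, and Rragd, a GTPase that recruits mTORC1 to lysosomes, which rose from 1146, 1541 and 1356 CP20M to 2185, 2643 and 2752 CP20M (0.90). Sqstm1, the autophagy receptor p62 and also an NRF2 target, fell from 25701, 23808 and 23889 CP20M to 15008, 13378 and 14336 CP20M (-0.78), and Atg101 fell by 0.78. The lysosomal gene called lower, Ctsh, had a log2 fold change of -0.71, which became -0.55 without M3(2) and was then not called.

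Stress programs were mixed, and their counts stand beside a background of 6.06% higher and 7.35% lower over all genes tested. Of 31 tested ATF4 and integrated stress response genes, 4 were higher and 2 were lower, with a median log2 fold change of 0.03. Vldlr, a lipoprotein receptor, rose from 682, 744 and 662 CP20M to 2567, 2109 and 2107 CP20M (1.67), and Gdf15, a stress cytokine, rose by 1.42. Aldh1l2 and Slc3a2 rose by 1.00 and 0.78. Slc7a11, which forms a transporter with the product of Slc3a2, fell and is counted in this list as well as among NRF2 genes. Of 20 tested genes of the unfolded protein response, 1 was higher and 2 were lower, with a median of -0.29 and with 17 of the 20 log2 fold changes below 0. Atf6, a sensor of that response, rose by 0.75, from 2862, 2924 and 2794 CP20M to 5045, 4993 and 4498 CP20M. The disulfide isomerase genes Pdia6 (-0.60) and Pdia4 (-0.59) were just past the fold threshold and were not called with edgeR, DESeq2 or median-of-ratios scaling, and Pdia4 also not without M3 (-0.54). Of 27 tested hypoxia and glycolysis genes, 3 were lower, among them Egln3 (-1.03) and Pkm (-0.83). Of 7 tested genes of MondoA and its targets, 5 were lower and 1 was higher (3 and 1 without the line block). The gene called higher, Mlxip (0.59), encodes MondoA itself and was not called without M3(2). Txnip, which responds to glucose, fell from 2398, 2541 and 2256 CP20M to 948, 1002 and 943 CP20M (-1.30). Exons of Txnip, Pkm and Aldh1l2 overlap Gm15441, AC160637.1 and D10Wsu102e. Of 9 tested Kruppel-like factors 3 were lower (1 to 3 when a line was left out), and Klf2 fell from 376, 582 and 401 CP20M to 66, 94 and 67 CP20M (-2.29).

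Counts for several other lists stand beside the same background of 6.06% higher and 7.35% lower over all genes tested. Of 25 tested genes of ribosome biogenesis, 4 were lower and none was higher (2 to 6 lower when a line was left out). Their median was -0.37, and Dkc1, a subunit of the pseudouridylation complex, was at -1.09. The log2 fold change was below 0 in 24 of these 25 genes, beside 5602 of all 10268 genes tested. Of 19 tested FOXO target genes, 3 were higher and 1 was lower, among them Gadd45b, which rose from 445, 453 and 426 CP20M to 884, 937 and 1107 CP20M, Pik3ip1 (1.08) and Ccng2 (-0.67). Of 12 tested circadian genes 2 were higher, with Bhlhe41 at 0.94. Of 7 tested complement genes, 2 were higher and 1 was lower (1 and 0 without the line block), and C2, the largest change at 1.44, shares 42.8% of its exon bases with Gm20547. The interstitial cell marker Ano1 was not called, at -0.13. No mesothelial or adipocyte marker passed the filter.

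Respiratory chain genes split by genome. All 7 tested protein-coding genes of mitochondrial DNA were higher, with a median log2 fold change of 1.01, and 6 others of the list were below the filter. None of 36 tested nuclear genes of the respiratory chain was called by limma, edgeR or DESeq2, with a median of -0.06 and with 10 at an unadjusted limma p under 0.05. Atp5b, at -0.33, had a limma adjusted p of 0.0041. mt-Co1 read 22160, 20225 and 26412 CP20M under Ve and 40296, 46797 and 50989 CP20M under R10. All genes of mitochondrial DNA together, in the list or not, took 0.73%, 0.78% and 1.17% of the Ve libraries. They took 1.08%, 1.29% and 1.53% of the R10 libraries. RNA quality values were not analysed here, and their part in this difference was not tested.

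R10 was also compared with 4 µM regorafenib (R4) in the same 3 lines. Over the 10268 genes, 178 (1.73%) were called, 63 (0.614%) higher and 115 (1.12%) lower under R10 than under R4. Without the line block 7 genes were called, and without M1(2) limma called none, with 1232 genes at an unadjusted p under 0.05, so these calls rest on few libraries. The R4 library of M3(2) had an endothelial marker sum of 37993 CP20M, beside 7788 CP20M in its R10 library, and the part of endothelial cells in differences from R4 was not tested.

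Many of the largest changes against vehicle went further between 4 and 10 µM. These genes were ranked on the same R10 libraries, which favours a further step, so this is not independent evidence. Hsd3b6, Il18rap, Il1rl1 and Ifi209 were not called between the doses (limma adjusted p = 0.085, 0.077, 0.57 and 0.092). Galnt16 read 607, 638 and 260 CP20M under R4, and rose from there by a log2 fold change of 2.02 ± 0.11 (SE, n = 3 lines; limma adjusted p = 0.002). Slc1a6, Ptprz1 and Igfbp2 rose by 1.82, 1.24 and 1.04 from R4. Spp1 read 343 ± 83.7 CP20M (SD, n = 3 lines) under R4 and fell by a further 1.35 (limma adjusted p = 0.018). Nqo1 fell by 1.68 between the doses, Cyp1b1 by 1.64, Slfn2 by 2.03, Angptl4 by 1.53, Ccl2 by 1.69 and Ccl7 by 1.18.

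In the matrix, Postn read 19650, 7760 and 21444 CP20M under R4 and rose by 1.06, Itga8 rose by 0.90, Nid2 by 1.37 and Nov by 1.70. Has2 fell by 1.18, Timp1 by 1.07 and Plau by 0.90. Itga8 read 1309, 1381 and 1142 CP20M under R4, below every R10 value. The panels of gene levels by dose show this stepwise course for Spp1, Postn and Itga8.

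Pdgfra was also not called between the doses. It read 1156, 383 and 196 CP20M under R4, and the R10 value was lower by 0.68 ± 0.22 (SE, n = 3 lines; limma adjusted p = 0.16). Errfi1 read 723, 644 and 624 CP20M under R4 and was lower by 0.36 ± 0.10 under R10 (limma adjusted p = 0.12). Neither p shows that the doses had the same effect. Of the 25 tested ERK targets limma called 0 between R4 and R10, with 6 at an unadjusted p under 0.05 and 2 called by edgeR and 1 by DESeq2. Of the 21 tested contractile genes it also called 0, with 3 at an unadjusted p under 0.05 and 1 called by each of the other tools.

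Cell division genes differed among the lines at 4 µM. Mki67 read 535, 2164 and 790 CP20M under R4 in M3, M3(2) and M1(2), so that M3(2) stayed above its own Ve value of 1681 CP20M while the other lines had fallen. At 10 µM all 3 lines read 282 to 344 CP20M. Ccnb1 read 126, 306 and 157 CP20M and Mcm6 342, 655 and 462 CP20M under R4, again highest in M3(2). The log2 fold change of Mki67 between the doses was -1.59 ± 0.32 (SE, n = 3 lines) and was not called (limma adjusted p = 0.056). Of the 29 mitosis genes, 5 were called lower under R10 than under R4, with a median of -0.94, beside -0.02 over all genes tested. Of the 25 replication genes limma called 0, with a median of -0.46 and 14 at an unadjusted p under 0.05, while edgeR called 5 and DESeq2 called 4.

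**Figure D5:**
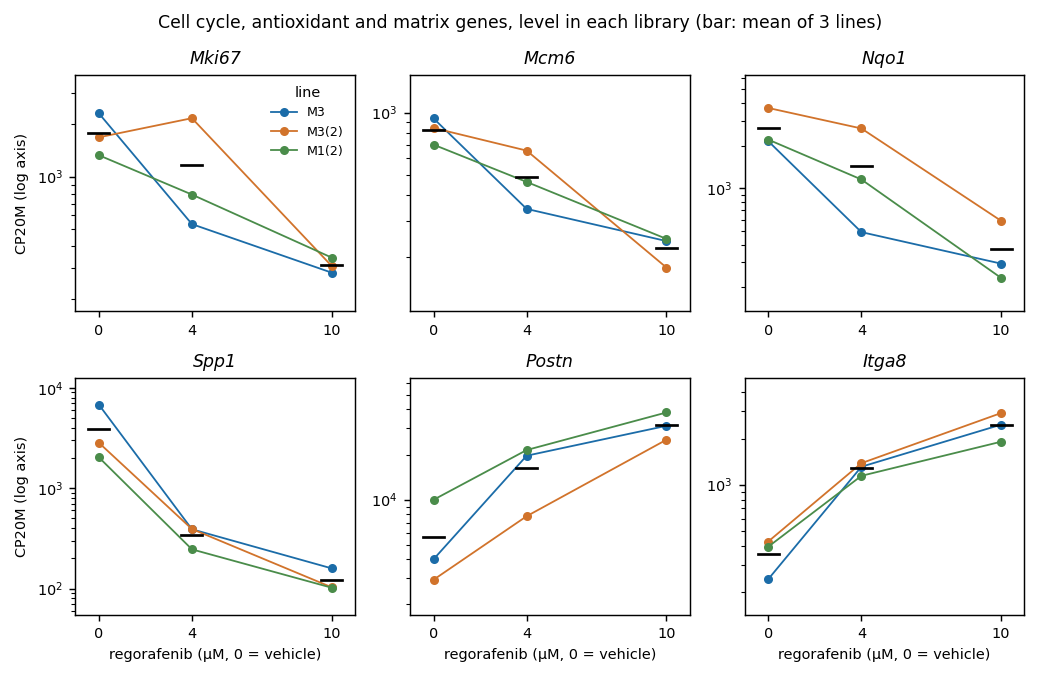
Level of 6 genes in CP20M (log axis) against regorafenib dose in µM, with 0 for vehicle, each line joined across doses and a black bar at the mean of the 3 lines. Spp1 fell and Postn and Itga8 rose at each dose in every line, while Mki67 in M3(2) was 2164 CP20M at 4 µM and 308 CP20M at 10 µM.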

How the data were processed

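RNA from fibroblast lines was made into libraries with the Ovation SoLo kit and sequenced in pairs. Per the labels, the authors trimmed reads with Trimmomatic 0.36, aligned them to GRCm38 with STAR 2.5.3a and counted them per gene with HTSeq 0.9.1. The strand setting of the counting is not given in the sources used here. The deposited values are a signal: counts the authors scaled to 20000000 per library (CP20M), which proved to be whole numbers rounded up and not divided by gene length.

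Columns were assigned to samples by library name. The filter was 200 CP20M, reached in 2 or more of the 6 libraries. The test was limma 3.58.1 (R 4.3.3, empirical Bayes with a trend) on log2(CP20M + 20), with the line as a block and with p-values adjusted by Benjamini-Hochberg over every gene that passed the filter. Fold changes are on that scale, so those of low genes are understated. A call needed an adjusted p under 0.05 together with a 1.5-fold change or more, up or down. Each pair of libraries of the same line deviated together from its group means (r = 0.682, 0.687 and 0.762), and pairs of different lines did not (r from -0.695 to -0.18), so the line was kept as a block. No replicate pair agreed within sampling noise (chi-square per gene 13.6 to 28.6). Read counts recovered from the steps of the values were whole for 99.935% to 99.954% of values (recomputed values equal to the deposited ones), and edgeR 4.0.16 and DESeq2 1.42.0 were run on them as alternatives only. The limma script was tested on simulated data.

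The gene lists (43 of pathways and 10 of cell type markers) and the members were chosen with earlier results of these data known. The genes named are the 10 largest increases and decreases among called protein-coding genes with 1 direction in all lines, up to 4 called genes per list and direction (up to 2 tested genes where none was called), all tested kinase targets, the genes the study picked out, Gramd1a, and the 6 genes whose promoters are printed. Some items that this rule names are not reported here. Others are said to be chosen after their values were seen. Promoters are the RefSeq bases before the start. Gene positions are those of GENCODE M21 (GRCm38). The p-values measure the spread between 3 lines of 1 library each per dose.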

Additional observations from a re-analysis of the deposited data

How the results depend on the processing

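Of 216 named genes, 203 were called, 153 of these kept their call under all 13 alternatives and 175 kept it when each line was left out in turn, and none changed direction. For R10 against Ve, 2209 genes were called with no filter on low values (1300 lower), and 477 with a mean of at least 1000 CP20M (244 higher, 233 lower). Leaving out each line in turn gave 1355 to 1494 calls, 573 to 701 higher and 728 to 793 lower. Median-of-ratios scaling gave 700 higher and 703 lower and moved the median of all genes to 0.00.

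Without the replicate block, that is without pairing by line, 1068 genes were called (451 higher, 617 lower), and 34 named genes lost their call. For R10 against R4, 7 were called without the block (3 higher, 4 lower).

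R10 against R4 depended on the settings. With the replicate block over all 19 fibroblast libraries, 529 genes were called (106 higher, 423 lower). A pseudocount of 100 CP20M gave 115 (72 lower), a mean of at least 1000 CP20M gave 66 (27 higher, 39 lower), median-of-ratios scaling 277 (187 lower), edgeR 359 (97 higher, 262 lower) and DESeq2 317 (226 lower). With no filter on low values limma called 0 genes, 0 higher and 0 lower, with 2886 at an unadjusted p under 0.05. Leaving out each line gave 0 to 261 calls, 0 to 75 higher and 0 to 186 lower, with 0 without M1(2). The cause of these shifts was not tested. With 3 lines, changes under the fold threshold and genes below 200 CP20M are not resolved.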

Other observations

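Outside the gene lists, the following genes were chosen after their values were seen, from the 40 largest increases and the 40 largest decreases. Hgf, the hepatocyte growth factor that fibroblasts send to epithelium, read 699, 718 and 451 CP20M under Ve in M3, M3(2) and M1(2), and 102, 103 and 126 CP20M under R10 (log2 fold change -2.28 ± 0.18, SE, n = 3 lines; limma adjusted p = 7.4e-05). Ptn, the heparin-binding growth factor pleiotrophin, which is a ligand of the receptor encoded by Ptprz1, read 633 ± 419 CP20M under Ve and 65 ± 51.1 CP20M under R10 (SD, n = 3 lines; log2 fold change -2.94), so that ligand and receptor moved in opposite directions. Ccbe1, a matrix protein needed for the maturation of VEGF-C, fell by 2.31, and Nr4a2, an immediate early nuclear receptor, by 1.94. Socs3, a feedback inhibitor of cytokine signaling, fell from 448, 340 and 656 CP20M to 66, 96 and 146 CP20M (-2.03).

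Genes of the matrix outside the lists moved in both directions. Mmp12, a macrophage metalloelastase, fell from 237, 94 and 214 CP20M to 25, 28 and 29 CP20M (log2 fold change -2.01). Hmcn1, hemicentin 1, read 67, 203 and 53 CP20M under Ve and 732, 807 and 759 CP20M under R10 (log2 fold change 2.81), and Smoc2 went from 70, 277 and 55 CP20M to 646, 1177 and 751 CP20M (2.75). Cemip, a hyaluronan-degrading protein, rose from 5611, 3464 and 3138 CP20M to 17925, 15459 and 10243 CP20M (1.84), while Has2, a hyaluronan synthase, fell by 2.44. Ppp1r14a, an inhibitor of myosin phosphatase found in smooth muscle, rose by 2.54, and the cation channel gene Trpc6 by 2.17. For each of the genes named here the R10 and Ve values did not overlap. Their choice from the largest called changes favours this, so it is not independent evidence.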
